A study of Homo sapiens with 9 samples.

Results

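The genes described here are those of the bile acid receptor FXR and its ileal targets: NR1H4, NR0B2, NR1I2, FGF19, SLC51A, SLC51B, SLC10A2 and FABP6, 8 of the 60591 gene symbols in the count table. They were selected by symbol, and they were chosen with earlier results of these data known, among them the counts of NR1H4 after CoCl2. Their values are therefore a description: for the members that entered the fit over all genes it is stated whether they were called, with no p, and this supports nothing about them. The libraries came from undifferentiated Caco-2 (uCaco-2) cells, a human colon adenocarcinoma line used as a model of the proliferating intestinal epithelium. Medium was replaced for 24 h with fresh medium (control), with medium holding 300 µM CoCl2, or with medium holding 5 µM of an oxyquinoline derivative (OD), and 0.5% DMSO was added to the control and CoCl2 medium because OD was dissolved in DMSO. The final DMSO share of the OD medium is not given in the sources used here, so OD and a difference in solvent cannot be told apart in any comparison with OD. Both compounds are used to mimic hypoxia: they block the hydroxylases that mark the hypoxia-inducible factors for breakdown. There were 3 libraries of each kind, from cultures of 1 cell line, so the spread between them holds no difference between donors. All 9 libraries were of mRNA.

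FXR, the product of NR1H4, is a nuclear receptor that binds bile acids and acts on DNA mostly as a heterodimer with RXR, at inverted repeats of the hexamer AGGTCA separated by a single base. In the ileum it switches on a small programme: FGF19, a hormone that travels to the liver and represses bile acid synthesis, the basolateral exporter made of SLC51A and SLC51B, the cytosolic bile acid binding protein FABP6, and NR0B2 (SHP), a repressor that damps the apical uptake carrier SLC10A2. NR1I2 (PXR) is the related receptor for drugs and for toxic bile acids.

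Counts assigned to genes ranged from 15998136 to 18298190 per control library, from 16286502 to 24209427 with CoCl2 and from 16387054 to 19623776 with OD. Levels are given in CPM, the counts scaled to a common library total with TMM factors, and 3 counts, taken as the floor of detection, corresponded to 0.133 to 0.232 CPM. All 9 markers of colon epithelium were above 3 counts in every library, though LGALS4 had 5 to 33 counts and VIL1 fell with CoCl2 (log2 fold change -2.45). Of 4 leukocyte, 5 fibroblast and 3 endothelial markers, 1, 3 and 2 were above that floor in every library. Those were CD14 (35 to 101 counts), COL1A1 (135 to 480), COL3A1 (74 to 150), PDGFRB (8 to 127), PECAM1 (20 to 55) and VWF (6 to 20). PDGFRB fell with CoCl2 (log2 fold change -2.31), VWF rose with CoCl2 (1.61) and CD14 fell with OD (-1.08). PTPRC had at most 3 counts, and COL1A2 and DCN at most 2. The summed level of the 5 hepatocyte markers was 293 to 326 CPM in control, 364 to 404 with CoCl2 and 274 to 296 with OD. It was nearly all SERPINA1 and ALB, which this line expresses. CYP2E1 and TAT had at most 4 counts, and CPS1, at 1 to 35 counts, fell with CoCl2 (log2 fold change -2.10) and OD (-1.85). Of 4 known hypoxia-response genes, NDRG1 rose most with CoCl2 (log2 fold change 3.70) and with OD (3.22). VEGFA changed by 1.22 and 1.41, and EGLN3 by 1.27 with CoCl2 but only 0.35 with OD. CA9 had 0 to 16 counts and was too low to test.

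The promoters of 3 members are shown because these members had the counts to be compared between groups and were matched to a RefSeq promoter: NR1H4, whose reads appeared with CoCl2, and the exporter pair SLC51A and SLC51B. Each runs from 250 bases before to 50 bases after a RefSeq transcription start (GRCh38.p14, plus strand, 5′ to 3′). Capitals mark the hypoxia response element core (ACGTG or GCGTG) and the nuclear receptor hexamer AGGTCA, on either strand.
NR1H4, chr12:100503110-100503409: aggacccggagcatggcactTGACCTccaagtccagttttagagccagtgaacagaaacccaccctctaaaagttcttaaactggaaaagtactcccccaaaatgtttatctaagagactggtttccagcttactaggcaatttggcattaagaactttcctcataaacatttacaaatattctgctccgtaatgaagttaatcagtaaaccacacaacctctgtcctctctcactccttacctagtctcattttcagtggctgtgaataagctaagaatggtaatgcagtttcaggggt
SLC51A, chr3:196216284-196216583: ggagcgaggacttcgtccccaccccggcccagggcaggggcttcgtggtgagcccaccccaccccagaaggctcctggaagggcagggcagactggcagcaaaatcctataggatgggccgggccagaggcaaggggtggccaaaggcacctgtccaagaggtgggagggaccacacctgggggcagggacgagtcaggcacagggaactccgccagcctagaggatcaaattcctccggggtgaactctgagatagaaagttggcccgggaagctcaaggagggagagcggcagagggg
SLC51B, chr15:65045137-65045436: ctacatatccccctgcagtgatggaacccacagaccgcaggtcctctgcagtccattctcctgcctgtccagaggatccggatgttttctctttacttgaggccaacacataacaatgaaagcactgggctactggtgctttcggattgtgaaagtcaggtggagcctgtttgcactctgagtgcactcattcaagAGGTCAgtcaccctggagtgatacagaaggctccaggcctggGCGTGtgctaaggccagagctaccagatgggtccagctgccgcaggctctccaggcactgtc
The NR1H4 window is poor in G and C (41.7%, against a median of 58.7% over 35116 promoters). It holds no hypoxia core, a core that 48.4% of all promoters hold. It has the hexamer at position -230 from the start on the other strand (tgacct), which 13.8% of promoters hold, and at position -98 the pair GAANNTTC that heat shock factors bind, which 6.77% hold. The SLC51B window holds GCGTG at position -12 and AGGTCA at position -54. That hexamer is the first arm of an inverted repeat (AGGTCA, 1 base, TGACCT) with 2 mismatches, aggtcagtcaccc, a match found in 1.12% of promoters. At position -232 it also holds TGATGNAA, the core of the amino acid response element, as 3.62% of promoters do. None of these motifs is in the SLC51A window, whose G and C content is 65.0%. Motifs were searched on both strands, and a match is a description of letters and not of binding. Of the 8 members, 6 were matched to a RefSeq promoter, and no promoter is shown for FGF19 or NR0B2.

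By library, the members fell into 3 patterns. NR1H4 was read only with CoCl2 beyond a stray count, FGF19 was higher with both compounds, and SLC51B was higher with both compounds by a smaller factor. SLC51A was slightly higher with CoCl2, and the other 4 members stayed at 0 to 8 counts per library. In bulk RNA, fewer expressing cells and less RNA per cell cannot be told apart. A gene was called where its p from edgeR's quasi-likelihood fit, adjusted by Benjamini-Hochberg over all 15944 tested genes, was under 0.05 and its absolute log2 fold change above 1. NR1H4, FGF19, SLC51A and SLC51B passed the filter on low counts and NR0B2, NR1I2, SLC10A2 and FABP6 did not, and NR1H4 and FGF19 passed it through the groups in which they were high.

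**Figure D1:**
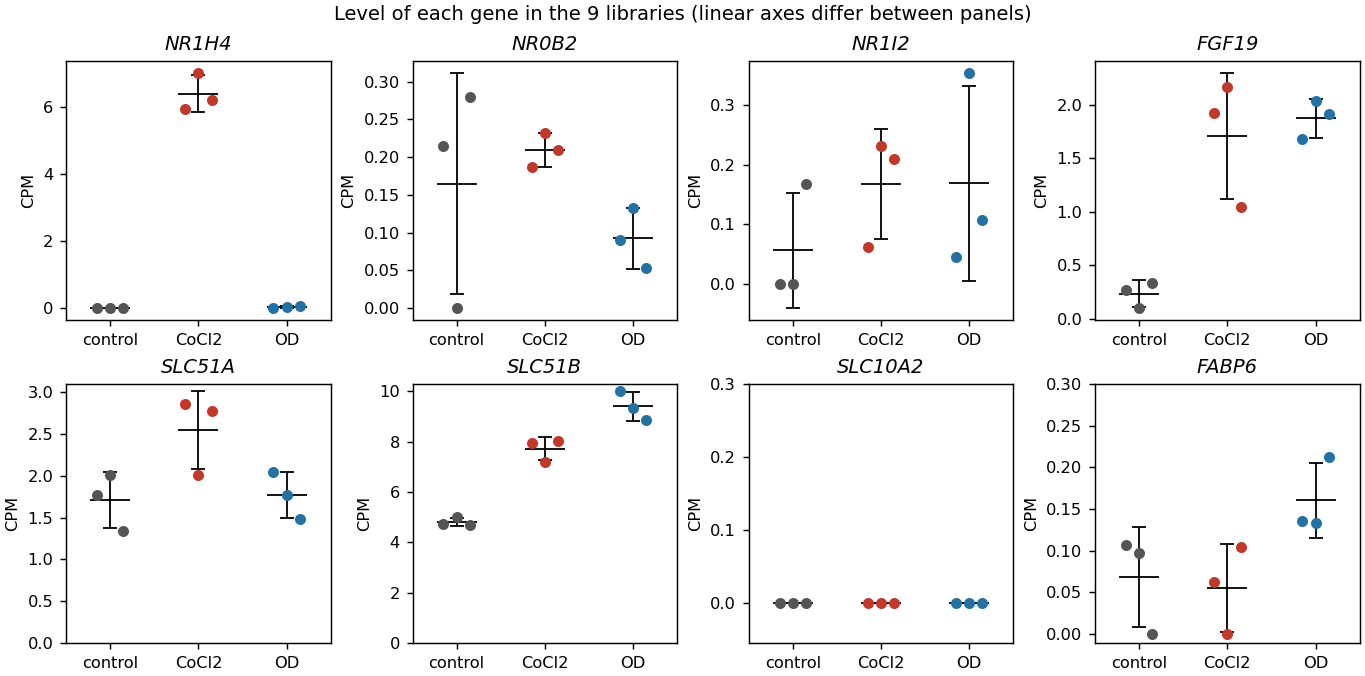
Level of each of the 8 members in CPM (linear vertical axes that differ between panels) in the 3 control, 3 CoCl2 and 3 OD libraries; points are libraries and the lines give the mean and SD. NR1H4 stands at 5.96 to 7.03 CPM with CoCl2 and at or near 0 elsewhere, FGF19 is raised with both compounds, and the groups of SLC51B do not overlap.

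With CoCl2, 2 members (NR1H4 and FGF19) were called higher than in control, where 19.9% of tested genes were called higher. No member was called lower, where 23.4% of tested genes were. With OD, 1 member (FGF19) was called higher, against a background of 9.09%, and none lower, against 4.16%. In the direct comparison of CoCl2 with OD, 1 member (NR1H4) was called higher, against 17.5%, and none lower, against 23.8%. The members were chosen with these contrasts known, and nothing is read from these counts. The scaling matters for CoCl2: its TMM factors were 0.770 to 0.795, against 1.11 to 1.12 in control and 1.14 to 1.15 with OD. Scaled by library size alone, the median over all genes of the log2 fold change went from -0.049 to -0.554 in the CoCl2 comparison, and from -0.0535 to -0.598 against OD. The share of higher genes among all calls then went from 46.0% to 23.9% with CoCl2 and from 42.4% to 18.3% against OD.

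**Figure D2:**
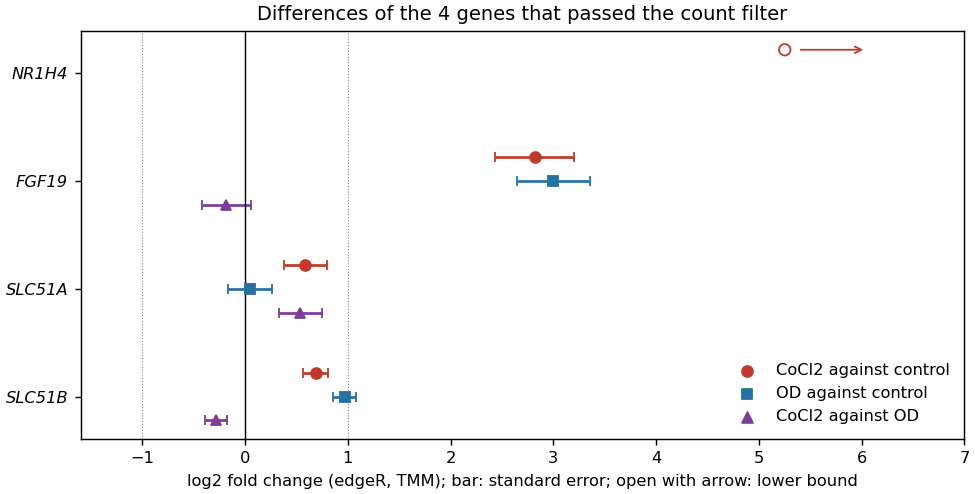
Log2 fold change (horizontal axis, edgeR with TMM scaling) of the 4 members that passed the count filter, for CoCl2 against control (circles), OD against control (squares) and CoCl2 against OD (triangles); bars are standard errors, the open symbol with an arrow is a lower bound set by the 3-count floor, and dotted lines mark the threshold of 1. FGF19 lies near 3 for both compounds, SLC51B at 0.69 and 0.97, and NR1H4 is shown by its bound against control alone.

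NR1H4 (chromosome 12, 100473708 to 100564414, plus strand, 15 merged exons) encodes FXR itself. It had 0 counts in each of the 3 control libraries, 96, 91 and 119 counts with CoCl2, and 0, 1 and 1 counts with OD. The CoCl2 libraries were alike and far from all others, and no value of the other 6 libraries came near them. The CoCl2 level was 5.96, 7.03 and 6.23 CPM, a mean of 6.41 ± 0.556 (SD, n = 3). The pooled control count of 0 allows a level of up to 0.0648 CPM (exact 95% Poisson limit, counting error only), and the pooled OD level was 0.0315 CPM, with an interval of 0.00382 to 0.114. Set against the floor of 3 counts per library, NR1H4 was at least 38.1-fold higher with CoCl2 than in control. Against OD, where 2 reads were counted in all, the ratio of pooled levels was 202, with an exact 95% interval of 55.3 to 1670. No fold is given for OD against control, since both groups were at or under the floor. The gene shares no exon bases with another annotated gene, although an unnamed transcript on the other strand overlaps its span. The RefSeq start whose promoter is printed above lies inside this span, and which start gave the reads cannot be told from counts per gene.

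NR0B2 (SHP), the repressor that FXR induces, and NR1I2 (PXR) were read at the floor in all groups. NR0B2 (chromosome 1, 26911489 to 26913975, minus strand, within the NUDC locus without shared exon bases) had 4, 0 and 5 counts in control, 3, 3 and 4 with CoCl2 and 2, 3 and 1 with OD. Its pooled levels were 0.158 CPM in control (exact 95% interval 0.0723 to 0.300), 0.208 with CoCl2 (0.0996 to 0.382) and 0.0946 with OD (0.0347 to 0.206). The 3 intervals overlapped, which is no test, and NR0B2 was too low for the fit to test a difference. In CPM every CoCl2 library (0.186 to 0.232) was above every OD library (0.0532 to 0.133), on 1 to 4 counts each. NR1I2 (chromosome 3, 119780484 to 119818487, plus strand) had 0, 0 and 3 counts in control, 1, 3 and 4 with CoCl2 and 1, 8 and 2 with OD. The NR1I2 intervals, 0.0109 to 0.154, 0.0718 to 0.328 and 0.0866 to 0.310 CPM, overlapped as well, and 4.07% of its exon bases are shared with other annotated genes on the same strand.

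FGF19 (chromosome 11, 69698238 to 69704022, minus strand, 3 exons), the enterohepatic hormone, was low in control and higher with both compounds. Its counts were 5, 2 and 6 in control, 31, 28 and 20 with CoCl2 and 37, 46 and 36 with OD. Every treated library was above every control library. The level went from 0.234 ± 0.123 CPM in control to 1.71 ± 0.588 with CoCl2 and 1.88 ± 0.183 with OD (SD, n = 3 each). CoCl2 raised it by 2.82 on the log2 scale (SE 0.381, 7.05-fold) and OD by 3.0 (SE 0.354, 8.0-fold). The CoCl2 libraries spread more than those with OD: the lowest, replicate 3, had 1.05 CPM and the others 1.93 and 2.16. The treated groups overlapped, and CoCl2 against OD differed by -0.18 on the log2 scale (SE 0.238). Without CoCl2 replicate 3 that difference was 0.12, so its sign rests on a single library. FGF19 shares no exon bases with any annotated gene.

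SLC51A and SLC51B encode the subunits of the organic solute transporter through which bile acids leave the enterocyte. SLC51B (chromosome 15, 65045387 to 65053397, plus strand, 4 exons), the small subunit, had 88, 102 and 84 counts in control, 128, 93 and 153 with CoCl2 and 221, 211 and 167 with OD. In CPM these were 4.73, 4.99 and 4.71, then 7.95, 7.19 and 8.01, then 10.0, 9.35 and 8.88. No library of one group overlapped another group: control was lowest and OD highest. Log2 fold changes from control were 0.69 for CoCl2 (SE 0.122) and 0.97 for OD (SE 0.112, 1.96-fold), both under the size threshold, and CoCl2 against OD was -0.28 (SE 0.105). SLC51B sat just under the threshold with OD: it was 1.01 without OD replicate 3 and 1.01 with library size alone, and was then called. Its CoCl2 value was 0.18 with that scaling. On the other strand, 6.60% of its exon bases are shared with RASL12 and an unnamed gene.

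SLC51A (chromosome 3, 196211487 to 196243178, plus strand), the large subunit, had 33, 41 and 24 counts in control, 46, 26 and 53 with CoCl2 and 45, 40 and 28 with OD. The level was 1.71 ± 0.336 CPM in control, 2.55 ± 0.468 with CoCl2 and 1.77 ± 0.276 with OD. The lowest CoCl2 library and the highest control library were both at 2.01 CPM. Log2 fold changes were 0.59 for CoCl2 (SE 0.211), 0.049 for OD (SE 0.216) and 0.54 for CoCl2 against OD (SE 0.205), and none was called. Under library-size scaling the CoCl2 value of SLC51A was 0.083 and its CoCl2 against OD value -0.0058. The OD value of SLC51A turned to -0.092 without control replicate 3 and to -0.066 without OD replicate 1. PCYT1A, on the other strand, shares 7.39% of its exon bases. Per kilobase of merged exons SLC51B was 16 times as abundant as SLC51A in control, 17.3 times with CoCl2 and 30.4 times with OD, and by the length of the main transcript 4.36, 4.69 and 8.24 times.

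SLC10A2 (chromosome 13, 103043998 to 103066417, minus strand), the apical sodium-dependent carrier that takes bile acids up in the ileum, had 0 counts in all 9 libraries. The pooled upper limits were 0.0648 CPM in control, 0.0766 with CoCl2 and 0.0582 with OD. FABP6 (chromosome 5, 160187367 to 160238735, plus strand), the ileal bile acid binding protein, had 2, 2 and 0 counts in control, 1, 0 and 2 with CoCl2 and 3, 3 and 4 with OD. Every OD library had more counts of FABP6 than any control or CoCl2 library, but the pooled intervals overlapped: 0.0192 to 0.180 CPM in control, 0.0129 to 0.182 with CoCl2 and 0.0756 to 0.290 with OD. FABP6-AS1, on the other strand, shares 10.0% of the exon bases of FABP6.

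Per kilobase of merged exons, the control order was SLC51B (5.21 CPM per kb), SLC51A (0.325), NR0B2 (0.142), FGF19 (0.129), FABP6 (0.0629) and NR1I2 (0.0104), with NR1H4 and SLC10A2 at 0. From NR0B2 down, neighbours in this order overlapped between libraries. With CoCl2 the order was SLC51B (8.35), NR1H4 (1.77), FGF19 (0.940), SLC51A (0.484), NR0B2 (0.180), FABP6 (0.0511) and NR1I2 (0.0312). With OD it was SLC51B (10.2), FGF19 (1.03), SLC51A (0.336), FABP6 (0.148), NR0B2 (0.0792), NR1I2 (0.0313) and NR1H4 (0.00896). The exporter subunit SLC51B thus led in every group, and NR1H4 moved from the bottom in control to the second place with CoCl2. The place of SLC51A depends on the length used: by its main transcript it stood at 1.19 in control, 1.78 with CoCl2 and 1.24 with OD, above FGF19 in each group.

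FGF19 acts on FGFR4 with the co-receptor KLB (beta-klotho). Of 9 genes of the FGF19 family and its receptors, 7 were tested. With CoCl2 6 of the 7 were called lower (85.7%, against 23.4% of all tested genes) and none higher (against 19.9%), with a median log2 fold change of -1.32 against -0.049 over all genes. Under the alternatives 5 to 7 were called lower. With OD none was called, with a median of 0.12. Leaving out control replicate 1 or OD replicate 1 gave 1 called higher with OD, as did no filter on low counts, with 9 tested. Leaving out control replicate 3 gave 1 called lower. FGFR4 fell from 145 ± 8.18 CPM to 58.1 ± 2.82 with CoCl2 (log2 fold change -1.32, adjusted p = 4.963e-33 edgeR, adjusted over all genes). With OD FGFR4 was at 84.0 ± 4.55 CPM (log2 fold change -0.79), between the other groups and overlapping neither. FGFR1 (log2 fold change -1.62), FGFR2 (-1.45), FGFR3 (-1.22), and the co-receptor KL (-2.10) also fell with CoCl2. MALRD1, an enterocyte protein that acts on FGF19 output, was called lower at the edge of the threshold (-1.02), and not with RLE factors (-0.97) or without control replicate 2 (-0.88), CoCl2 replicate 1 (-0.92) or CoCl2 replicate 2 (-0.99). KLB was not called: it was at 4.64 ± 1.01 CPM in control, 2.95 ± 0.345 with CoCl2 and 8.43 ± 1.5 with OD. KLB differed from control by -0.64 for CoCl2 and 0.86 for OD on the log2 scale, and CoCl2 was lower than OD by a called amount (-1.5, adjusted p = 1.88e-13, edgeR). Under library-size scaling KLB was also called lower with CoCl2 (-1.14). KLB was called higher with OD without control replicate 1 (1.07) or OD replicate 1 (1.01). FGF21 and FGF23 had at most 6 and 10 counts in any library.

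**Figure D3:**
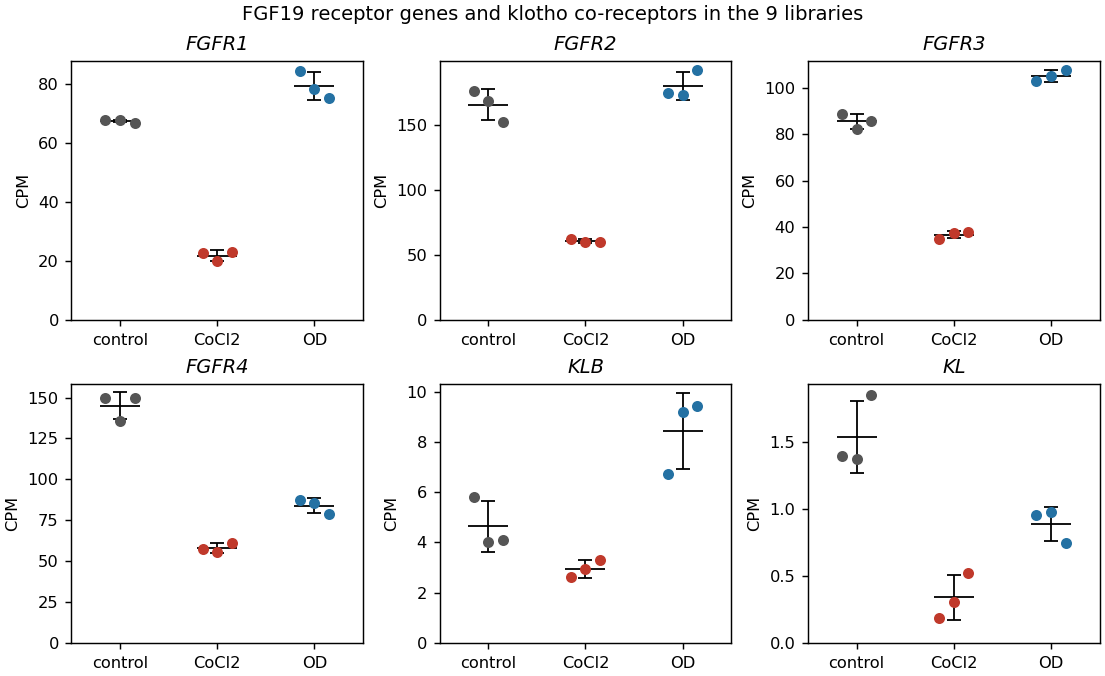
Level in CPM (linear vertical axes that differ between panels) of the FGF receptors and klotho co-receptors in the 3 control, 3 CoCl2 and 3 OD libraries; points are libraries and lines give the mean and SD. The CoCl2 libraries are the lowest of the 9 in each panel, with FGFR4 at 58.1 CPM against 145 in control.

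The counts of the lists that follow stand against 19.9% higher and 23.4% lower of all tested genes with CoCl2 and 9.09% and 4.16% with OD, with medians of -0.049 and -0.010. Among the partners and cofactors of FXR, 12 were tested: CoCl2 gave 4 calls higher and 1 lower (median log2 fold change 0.18), and OD 0 higher and 1 lower (0.16). RXRA, the usual heterodimer partner, was at 46.0 ± 3.11 CPM in control, 25.1 ± 1.45 with CoCl2 and 51.1 ± 3.21 with OD. Its log2 fold change with CoCl2, -0.87, was under the size threshold, and against OD it was -1.02 and called. That RXRA call was lost in 4 of 18 alternatives. These were leaving out CoCl2 replicate 1 (-0.97) or OD replicate 3 (-0.98), RLE factors (-0.98), and counts thinned to the smallest library (-0.998). RXRB was at 25.7 ± 0.564, 51.5 ± 1.03 and 34.5 ± 0.373 CPM, a log2 fold change of 1.01 with CoCl2 at the edge of the threshold, and its call was lost in 8 of 18 alternatives, among them leaving out control replicate 2 (0.99), control replicate 3 (1.00) or CoCl2 replicate 3 (1.00). The coactivator NCOA3 rose most with CoCl2 (log2 fold change 1.96, adjusted p = 5.357e-47, edgeR), followed by the deacetylase SIRT1 (1.66) and the acetyltransferase EP300 (1.19). CARM1, an arginine methyltransferase coactivator, was the gene called with OD (-1.06). Under library-size scaling CoCl2 gave 2 partners called higher and 4 lower, and EP300 was then not called.

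Of 8 tested receptors for other lipids, sterols, bile acids or drugs, CoCl2 gave 1 called higher and 3 lower (median -0.22), and OD 1 higher and 0 lower (0.55). VDR, the vitamin D receptor that also binds lithocholic acid, fell from 22.5 ± 0.862 CPM to 5.68 ± 0.765 (log2 fold change -2.0, adjusted p = 4.008e-28, edgeR), and with OD it was at 28.7 ± 1.09 (0.35). The oxysterol receptors moved in opposite directions: NR1H2 (LXR beta) was higher by 1.28 and NR1H3 (LXR alpha) lower, at -1.10 or, without CoCl2 replicate 1, -0.96 and not called. NR1H2 was at 0.77 and not called under library-size scaling. NR1I3 (CAR) was lower by a called -1.19 that was -0.86 and not called without CoCl2 replicate 1. S1PR2, which binds conjugated bile acids, was called higher with OD (1.05), and not without control replicate 2 (0.92) or control replicate 3 (1.00). GPBAR1 (TGR5), the membrane receptor for bile acids, did not pass the count filter: it had 3, 1 and 2 counts in control, 16, 8 and 13 with CoCl2 and 4, 5 and 6 with OD.

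Of 11 tested transcription factors of liver and gut, 1 was called higher and 2 lower with CoCl2 (median -0.24), and 0 and 1 with OD (-0.0086). HNF4A, which drives many enterocyte genes, was at 309 ± 15 CPM in control, 410 ± 14.2 with CoCl2 and 425 ± 1.08 with OD. Its log2 fold changes of 0.41 and 0.46 were not called, and with library size alone that of CoCl2 was -0.092. NR5A2 (LRH-1), a partner of FXR at several promoters, rose with CoCl2 from 7.78 ± 0.183 to 27.6 ± 1.23 CPM (log2 fold change 1.83, adjusted p = 4.682e-29, edgeR) and was at 14.7 ± 0.594 with OD (0.92, not called). FOXA1, a pioneer factor of endodermal tissues, was called lower with OD (-1.48). With CoCl2 it was lower by a smaller amount (-0.74, not called). GATA4 was called lower with CoCl2: it had 23, 21 and 18 counts in control, 0, 3 and 3 with CoCl2, at or under the floor, and 32, 22 and 30 with OD.

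Of 13 tested genes of bile acid synthesis and conjugation, CoCl2 gave 3 called higher and 4 lower (median -0.34), and OD 3 higher and 0 lower (-0.15). CYP27A1, which starts the alternative pathway, rose with both compounds, from 14.8 ± 1.28 CPM to 37.4 ± 1.15 with CoCl2 and 33.8 ± 1.20 with OD (log2 fold changes 1.34 and 1.19), and with library size alone it was at 0.83 with CoCl2 and not called. BAAT, which joins bile acids to glycine or taurine, rose with CoCl2 (2.95) and with OD (1.45) from 0.434 ± 0.137 CPM. With CoCl2 the racemase AMACR (-2.63) and the oxidase ACOX2 (-1.95) of peroxisomal side chain shortening fell, as did the bile acid-CoA ligase SLC27A5 (-2.27). HSD17B4 (-0.054) and SCP2 (-0.17), of the same peroxisomal steps, were not called. The value of ACOX2 was -2.74 without CoCl2 replicate 3. CYP7A1, the rate-limiting enzyme of the classic hepatic pathway, had at most 2 counts in any library, and 7 of the 20 listed genes were too low to test.

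Among 12 other carriers of bile acids and biliary lipids, 5 passed the count filter, and with CoCl2 1 was called higher and 2 lower (median -0.91), with OD none (0.023). ABCC2 (MRP2), an apical exporter of conjugates, rose from 249 ± 2.08 to 733 ± 28.2 CPM with CoCl2 (log2 fold change 1.56, adjusted p = 5.037e-43, edgeR) and was at 318 ± 6.81 with OD (0.35). ABCC3 (MRP3), a basolateral exporter, fell from 25.2 ± 0.651 to 10.2 ± 0.505 CPM with CoCl2 (-1.31) and was at 25.9 ± 0.312 with OD. The flippase ATP8B1 was called lower with CoCl2 (-1.01), at the edge of the threshold. That ATP8B1 call was lost without control replicate 2 (-0.96), with RLE factors (-0.96) and with DESeq2 on all 9 libraries (-0.9975). ABCB11, the bile salt export pump of the liver, had at most 5 counts.

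Of 9 tested PXR targets, CoCl2 gave 2 called higher and 3 lower (median 0.12), and OD 0 higher and 2 lower (-0.023). CYP3A4, its best known target, had at most 4 counts in any library, and ABCB1 (P-glycoprotein) was at 15.9 ± 0.943 CPM in control, 17.3 ± 0.858 with CoCl2 (log2 fold change 0.12, or -0.39 with library size alone) and 9.86 ± 1.36 with OD (-0.70), not called. ALAS1, the first enzyme of haem synthesis, rose with CoCl2 (1.27, and 0.77 and not called with library size alone). CES2 fell with CoCl2 (-1.74) and GSTA1 with both compounds (-1.15 and -1.5). SULT2A1 was called lower with CoCl2 (-1.47), and its OD value of -0.97 was just under the size threshold. GSTA2 was called lower with OD (-1.39), and its CoCl2 value of -0.99 was just under that threshold.

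Of 15 tested FXR targets outside bile acid transport, 3 were called higher and 3 lower with CoCl2, each 20.0% of the list and near the 19.9% and 23.4% of all tested genes. With OD 3 (20.0%, against 9.09%) were called higher and 1 (6.67%, against 4.16%) lower. The medians were 0.043 and 0.29. INSIG2, which holds SREBP in the endoplasmic reticulum, rose from 12.9 ± 1.33 CPM to 43.3 ± 1.90 with CoCl2 and 63.6 ± 2.81 with OD (log2 fold changes 1.74 and 2.30, adjusted p = 1.063e-31 and 9.902e-39, edgeR). The adhesion molecule ICAM1 was called higher with both (1.03 and 1.07). VLDLR was called higher with CoCl2 (1.02), and not without control replicate 3 (0.98) or CoCl2 replicate 3 (0.98). ANG was called higher with OD (1.32), and its CoCl2 value of 0.99 was just under the size threshold. Neither ICAM1 (0.52) nor VLDLR (0.52) was called with CoCl2 under library-size scaling, nor without a filter on low counts (0.96 for each). The heparan sulfate proteoglycan SDC1 (-2.78), the asialoglycoprotein receptor subunit ASGR1 (-1.85) and the fibrinogen chain FGG (-1.61) fell with CoCl2, and FGG also with OD (-1.12). Of 11 tested enterocyte and ileal absorption markers, 0 were called higher and 4 lower with CoCl2 (median -0.49), and 2 higher and 0 lower with OD (0.40). FABP1, the fatty acid binding protein of liver and gut, fell from 31.1 ± 2.57 to 5.12 ± 0.285 CPM with CoCl2 (-2.59). APOB (-2.10), the peptidase ANPEP (-1.36) and CUBN (-1.24), the receptor for the vitamin B12 carrier, fell as well.

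**Figure D4:**
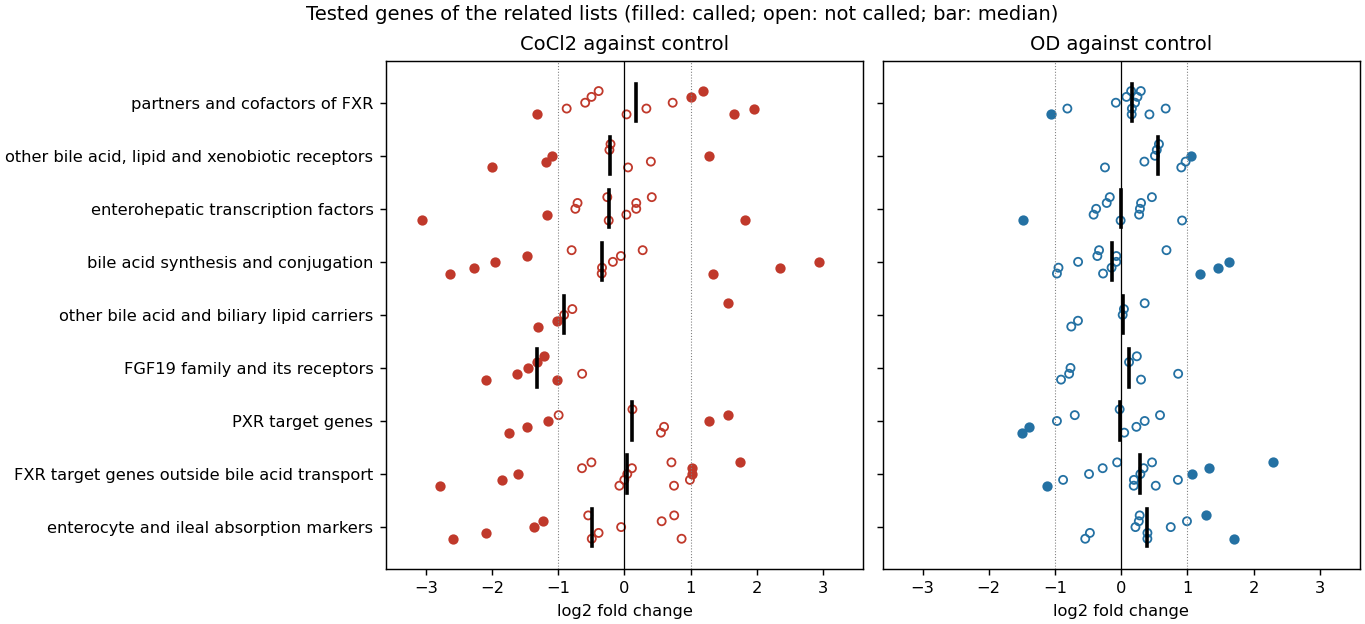
Log2 fold change (horizontal axis) of the tested genes of the 9 related lists (rows), for CoCl2 against control on the left and OD against control on the right; filled points were called, open points were not, bars mark each list's median and dotted lines the threshold of 1. The FGF19 receptor list lies at a median of -1.32 with CoCl2 and 0.12 with OD.

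Across all 9 lists, 89 of 122 related genes were tested, with 14 called higher and 27 lower with CoCl2, 9 higher and 5 lower with OD, and 5 higher and 25 lower for CoCl2 against OD. These were 15.7% and 30.3% with CoCl2, where 19.9% and 23.4% of all tested genes were called higher and lower. They were 10.1% and 5.62% with OD, against 9.09% and 4.16%, and 5.62% and 28.1% for CoCl2 against OD, against 17.5% and 23.8%. The medians were -0.34, 0.19 and -0.33, against -0.049, -0.010 and -0.054 over all genes. Under library-size scaling the split was 7 higher and 40 lower with CoCl2, and 0 higher and 43 lower against OD, so the share of higher calls went from 34.1% to 14.9% and from 16.7% to 0%. SIRT1 (0.82), NCOA3 (0.74), EP300 (0.57), BAAT (0.95) and ABCC2 (0.66) are the genes whose higher call of CoCl2 over OD was then lost.

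The genes around NR1H4 that passed the count filter were read in control and OD libraries as well. That filter keeps genes with reads, so nothing about the region is drawn from this. ANKS1B, SLC17A8, ANO4 and SLC5A8 were too low to test. The nearest protein-coding neighbours of NR1H4 were SLC17A8, 51653 bases away, and GAS2L3, 9269 bases away. SLC17A8 had at most 7 counts in any library. GAS2L3 was at 10.1 CPM in control and 14.0 with CoCl2 (log2 fold change 0.47, adjusted p = 1.098e-05, edgeR, not called). Within 1000 kb of the NR1H4 start, 6 of 10 genes were tested: with CoCl2 ACTR6 was called higher (1.20, or 0.69 and not called under library-size scaling) and ARL1 lower (-1.10), and with OD UTP20 was called lower (-1.42). Around FGF19, LTO1, 22822 bases away, was at -0.022 with CoCl2 and -0.15 with OD, and FGF4, 67000 bases away, had 0 counts in every library. Within 1000 kb of FGF19, 13 of 17 genes were tested, with 1 called higher and 2 lower with CoCl2 and 3 higher and 0 lower with OD. For this window and that of NR1H4, the shares over all tested genes were 19.9% higher and 23.4% lower with CoCl2. They were 9.09% and 4.16% with OD, and nothing is read from the counts in windows of so few genes. With CoCl2 CCND1 (cyclin D1), which starts 62.9 kb from FGF19, fell (-1.74, and 0.41 with OD, not called), TESMIN fell (-1.55) and IGHMBP2 rose (2.53). Those called higher with OD were MYEOV (1.87), SMIM38 (2.77) and CPT1A (1.03), a carnitine palmitoyltransferase, which lie 410, 549 and 860 kb away and at 0.75, 1.19 and 0.74 with CoCl2 were not called. CPT1A was at 0.99 and not called with OD without control replicate 2 or OD replicate 3.

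**Figure D5:**
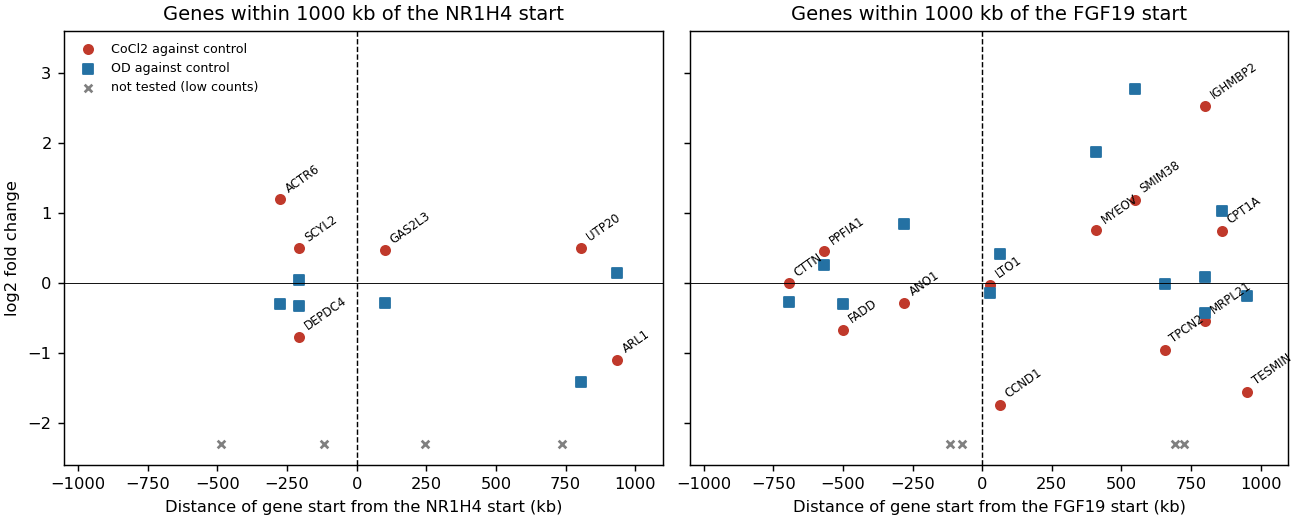
Log2 fold change (vertical axis) of protein-coding genes by the distance of their start from the NR1H4 start (left) and the FGF19 start (right) in kb, for CoCl2 against control (circles) and OD against control (squares); crosses are genes with too few counts to test. Around FGF19, the 3 genes called higher with OD lie between 410 and 860 kb, and LTO1, the nearest tested gene, is at -0.022 and -0.15.

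Over the 9 libraries the genes whose log2 CPM followed NR1H4 most closely were FXR1 (Pearson r 0.999), BLOC1S2 (0.999), HELB (0.999), SKP1 (0.999) and MBD4 (0.999). FXR1 encodes an RNA-binding protein and shares only an abbreviation with the bile acid receptor. It went from 124 ± 1.92 CPM in control to 359 ± 8.51 with CoCl2 and 132 ± 5.51 with OD. These coefficients are a description of 3 treatment groups: 2293 tested genes exceeded 0.95 and 533 exceeded 0.99. A class by counts was also described, with the counts of NR1H4 known, so its size supports nothing about NR1H4. It holds the 20 symbols, NR1H4 included, with at most 3 counts in each control and OD library and at least 30 in each CoCl2 library. The mirror pattern with OD held 1 symbol. Of the 60591 symbols, 24486 had no count in any library and 15944 were tested. The 5 with the highest CoCl2 mean were LINC02757, AL606500.1, CDKN2A-DT, AC012435.2 and IGHE, and NR1H4 ranked 9 among the 20.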

How the data were processed

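The deposited table held raw gene counts for 9 uCaco-2 libraries, which the authors made from single-end reads of stranded mRNA libraries. The submitters' processing notes name FastQC 0.11.9, cutadapt 2.10, STAR 2.7.5b and GRCh38. The counting tool and its settings for strand and multiply mapped reads are not given in the sources used here. Replicates were biological, per the study's methods, and of 1 line. Groups were taken from the labels. Rows were matched by symbol.

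Counts were tested with edgeR 4.0.16 (R 4.3.3; filterByExpr, TMM, robust quasi-likelihood, all 9 libraries, Benjamini-Hochberg adjustment over 15944 genes), and calls needed an adjusted p under 0.05 and an absolute log2 fold change above 1. DESeq2 1.42.0, other scalings and filters, thinned counts, a replicate term and leaving out each library were alternatives. Data were simulated for CoCl2 against control over 15462 genes. On them edgeR recovered 94 of 100 genes changed by a log2 fold of 2 and 98 of 100 by 3. It called 2 unchanged genes. In the measured CoCl2 comparison 6891 of 15944 genes were called. Recovery where so many genes differ was not tested, nor was the choice of scaling for CoCl2. Poisson intervals are exact and cover counting error only.

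The members and the related lists were chosen with earlier results of these data known. From each related list the text names the called ones that averaged 1 CPM or more, at most the 3 largest rises and falls per comparison, and 15 defining partners whatever their values. FGFR3, KL, MALRD1, GATA4, CUBN, HSD17B4 and SCP2, further genes of the 1000 kb windows, and the genes whose calls a scaling removed were named after their values were seen. Gene positions come from GENCODE on GRCh38 and promoters from RefSeq. Differentiated Caco-2 cells were not analysed here, and results for some single genes of the lists are not reported here.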

Additional observations from a re-analysis of the deposited data

How the results depend on the processing

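The counts of called genes moved most with the definition of a call. By adjusted p alone, 13260 genes were called with CoCl2, 10466 with OD and 13311 for CoCl2 against OD (6891, 2113 and 6580 with the size threshold). The related genes called were then 72, 72 and 74, and the members 4, 2 and 3. With at least 10 counts required in every library, no member was called in the 3 comparisons, because NR1H4 and FGF19 were removed, and 1134 genes were called with OD. With library size alone 2 members were called with OD. Leaving out each library in turn gave 1 to 2 members called with OD, the higher value without OD replicate 3, and 2 and 1 in the other comparisons.

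Of 1938 values of named genes under the alternatives, 1881 kept direction and side of the threshold, 44 lost and 6 gained a call, and 7 reversed. With library size alone, CoCl2 values reversed for HNF4A (-0.0924) and ABCB1 (-0.3854), and SLC51A for CoCl2 against OD (-0.0058). SLC51A with OD reversed without control replicate 3 (-0.0924), without OD replicate 1 (-0.0655), in a leave-one-out range of -0.0924 to 0.1841, and with counts thinned to the smallest library (-0.0675). FGF19 for CoCl2 against OD reversed without CoCl2 replicate 3 (0.1178), in a leave-one-out range of -0.3615 to 0.1178. All of these were uncalled, and the cause was not tested. The replicate numbers did not pair the libraries: correlations of same-numbered libraries' deviations ran from -0.00492 to 0.0376, with 0 of 9 above 0.1. With a replicate block 6901, 2115 and 6568 genes, 2, 1 and 1 members and 41, 14 and 30 related genes were called. Depth limits NR0B2, NR1I2, SLC10A2 and FABP6, which did not pass the filter on low counts.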
